A study of Mus musculus with 6 samples.

Results

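The 40 genes described here encode proteins of the postsynaptic side of a synapse, its scaffolds, kinase, spine actin proteins and adhesion molecules, together with 2 neurexins from the presynaptic side. They were taken by gene symbol, and all 40 were found among the 21878 symbols of the deposited expression table. The table held 6 input libraries, the part of each RNA sample that was not immunoprecipitated, from a MeRIP-seq study of HT22 cells, an immortalized mouse hippocampal line. In the control group (n = 3) no aluminum was given, and in the Al group (n = 3) cells received 120 µM aluminum maltolate, a soluble complex of aluminum with the ligand maltol. The Al libraries carry the letter M in the labels and were taken as the Al group because the series names no other treated group. The study's treatments generally lasted 24 h, but the time is not given separately for the sequenced cells. The study lists a control in DMEM apart from a maltol control and calls the sequenced group control. Whether these cells received maltol is not stated separately. All 6 libraries are of 1 line that keeps dividing in culture, so the groups model neither a mature neuron nor a synapse.

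In a neuron, glutamate receptors sit in a protein lattice, the postsynaptic density. MAGUK proteins such as PSD-95 bind receptors in its upper layer, DLGAP proteins link MAGUKs to SHANK proteins below, and HOMER proteins cross-link SHANK to signalling partners deeper in the spine. Neuroligins reach across the cleft to presynaptic neurexins, gephyrin holds the inhibitory receptors, and drebrin, synaptopodin and spinophilin tie the lattice to spine actin. Many of these genes have relatives that every cell type uses at junctions or at its actin cortex, and a cell line can express those without having synapses.

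The libraries held 37768842, 43091824 and 44220124 reads on genes in the control group and 26487603, 21707504 and 20973691 in the Al group, so every Al library was shallower than every control library. Defining neuronal markers were at or near 0. Of 15 neuron markers, 13 had a mean below 0.1 FPKM (read fragments scaled to transcript length and to the library's mapped reads), Snap25, Nefm and Neurod1 were at 0 in all 6 libraries, and Rbfox3 and Map2 were near 0. The summed FPKM of the list as deposited was 5.49 to 5.87 in control and 2.70 to 4.32 in Al, nearly all of it Tubb3. By the same test as the members, 0 of its 2 tested genes were called, with a median log2 fold change of 0.17. All 5 fibroblast markers were above 0.1 FPKM, with a summed level of 2011 to 3194 FPKM in control and 2469 to 3451 in Al, most of it the collagen genes Col1a1 and Col1a2. Of these 5, Dcn (log2 fold change -1.64), Lum (-2.28) and Pdgfra (-1.22) were called lower in Al by the same test as the members, Col1a1 (0.92) was called higher and Col1a2 was not called, with a median of -1.22. Among the astrocyte markers, Gja1 (connexin 43) was also expressed, at 19.9 ± 1.89 FPKM in control and 32.8 ± 2.89 in Al (mean ± SD, n = 3), while Aqp4 was at 0 in all 6 libraries. Apart from Tubb3 the labelled neuronal identity was not seen in these markers, and the part of this in the results was not tested.

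Of the 40 members, 22 had a mean of at least 1 FPKM, 6 lay between 0.1 and 1 FPKM and 12 were below 0.1 FPKM. The 28 members at 0.1 FPKM or more were tested on log2(FPKM divided by a size factor plus 0.1) with limma, and a gene was called when its adjusted P was below 0.05 and its absolute log2 fold change exceeded 0.58. In what follows, "rose" and "fell" are used only for called genes, and log2 fold changes are Al minus control with their standard error. By this rule 14 of 28 tested members were called lower, 1 was called higher and 13 were not called. Of these, Dlgap2 (lower) and Nrxn2 (higher) passed the filter through 1 group alone, so that the filter fixed their direction, and among the other 26 limma called 13 lower and 0 higher, with 1 higher (Nlgn3) at an unadjusted P below 0.05 or with limma voom on recovered reads. Over all 12889 tested genes, 23.7% were called lower and 25.5% were called higher. The median log2 fold change was -0.55 over the tested members and 0.03 over all tested genes, and 23 of the 28 members had a negative value where 48.9% of all tested genes did. An adjusted P below 0.05 at any fold change was reached by 19 of the 28 members and by 62.1% of all tested genes. After size factors every Al value lay below every control value in 19 members and above it in 2, Dlg5 and Nrxn2, against 33.1% and 35.1% of all tested genes. The summed FPKM of the 40 genes was 308 to 355 in the control libraries and 135 to 181 in the Al libraries as deposited, and 263 to 301 and 168 to 195 after size factors. The deposited sum over all genes was 361083 to 385447 in control and 428696 to 479075 in Al. After size factors it was 305995 to 329609 in control and 461668 to 599518 in Al. In bulk RNA a smaller number of expressing cells and less RNA per cell cannot be told apart.

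**Figure D1:**
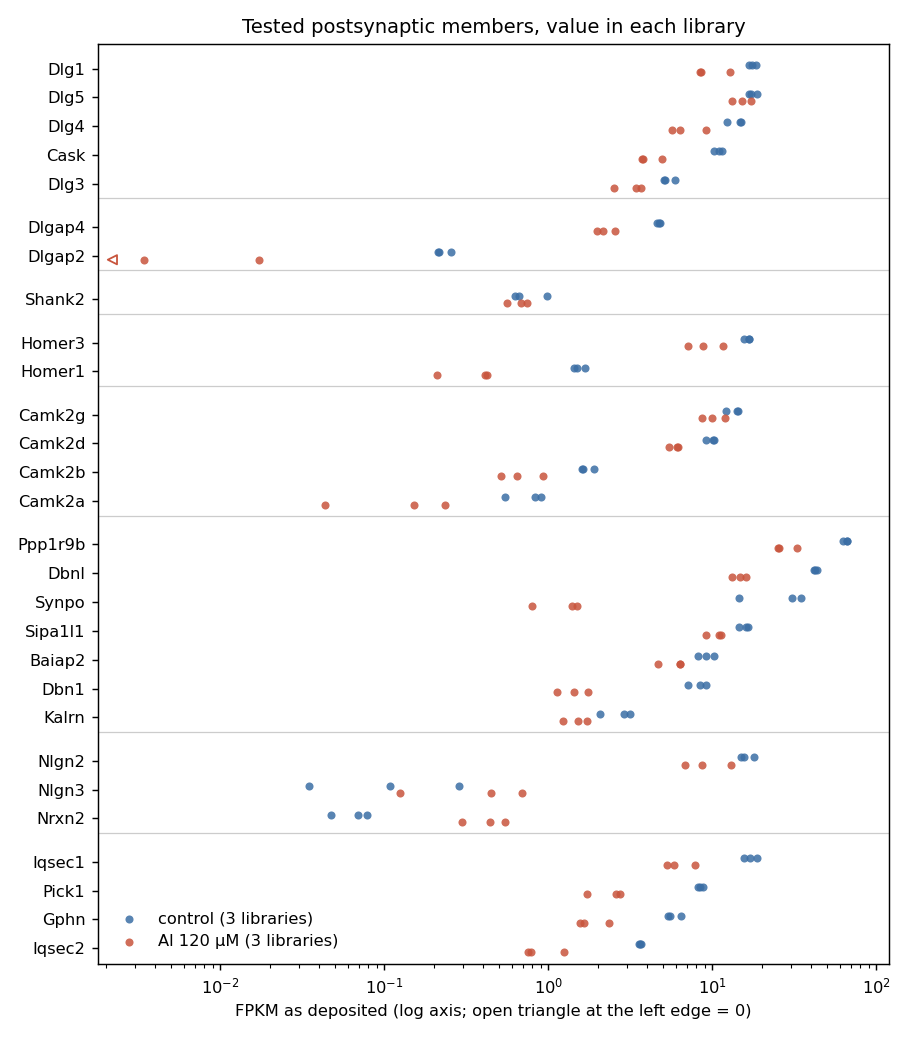
FPKM as deposited of the 28 tested members in each library, on a log axis, with 3 control (blue) and 3 Al (red) points per gene and grey lines between gene families. The points of Synpo, Dbn1, Homer1, Pick1 and Iqsec2 are widely separated with Al lower, those of Dlg5 and Shank2 overlap, and Nrxn2 is the gene whose 3 Al points all lie above its control points.

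The direction of the smaller changes depended on the scaling between libraries. The median of all tested genes shifted by -0.46 on the log2 scale when the deposited FPKM were used without size factors and by -0.75 when each library was brought to the same sum (TPM). The split of calls over all genes moved with it, from 51.9% higher among all calls with size factors to 24.6% on the deposited FPKM, 14.5% on TPM and 48.0% after quantile normalization. With FPKM as deposited 23 members were called lower and 1 higher, beside 41.3% and 13.5% of all tested genes. With TPM 24 were called lower and 1 higher, beside 52.2% and 8.85%, and after quantile normalization 12 and 1, beside 23.3% and 21.5%. The genes added by the first of these scalings were Dlg1, Dlg3, Dlg4, Homer3, Camk2d, Baiap2, Kalrn, Sipa1l1 and Nlgn2, and TPM added Camk2g. At an unadjusted P below 0.05 and the same fold change 14 members were called lower and 2 higher, beside 24.4% and 26.2% of all tested genes. Relative to the median of all tested genes, the median of the members was -0.58 with size factors, -0.60 on the deposited FPKM, -0.61 on TPM and -0.40 after quantile normalization. Cask, Homer1, Synpo, Dbn1, Dbnl, Ppp1r9b, Gphn, Pick1, Iqsec1 and Iqsec2, 10 of the 14 members called lower, were called lower under every setting that tested them.

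**Figure D2:**
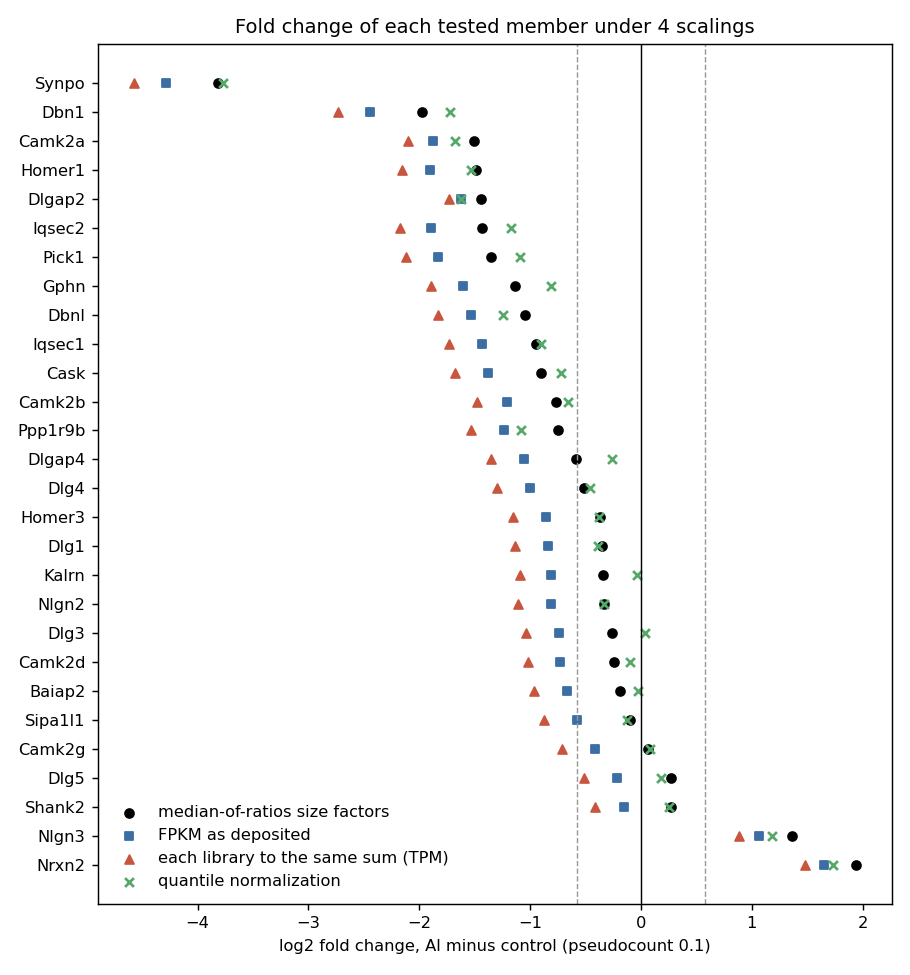
Log2 fold change, Al minus control, of each tested member with size factors (black circles), on deposited FPKM (blue squares), on TPM (red triangles) and after quantile normalization (green crosses), with dashed lines at -0.58 and 0.58. Synpo and Dbn1 stay far below 0 under all 4 scalings, Camk2g, Dlg3, Dlg5 and Shank2 lie on both sides of 0, and Nlgn3 and Nrxn2 stay above it.

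Among the MAGUK scaffolds, Cask fell, Dlg1, Dlg3 and Dlg4 had lower values without a call, and Dlg5 did not follow them. Cask, a membrane-associated guanylate kinase that binds neurexins, read 10.9, 11.4 and 10.3 FPKM in control and 3.75, 3.79 and 4.90 FPKM in Al. The groups were far apart, and the log2 fold change was -0.90 ± 0.11 (adjusted P = 0.000189). Dlg4, which encodes PSD-95, the main scaffold of excitatory synapses, read 14.8, 14.97 and 12.3 FPKM in control and 5.69, 6.40 and 9.14 FPKM in Al. All Al values were below the control values, and the log2 fold change of -0.52 ± 0.14 (adjusted P = 0.0122) stayed inside the fold threshold. Without control replicate 3 or without Al replicate 3 Dlg4 was called lower, with log2 fold changes reaching -0.64.

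Dlg1 (SAP97), which is used at epithelial junctions as well as synapses, read 17.5, 18.5 and 16.6 FPKM in control and 8.54, 8.39 and 12.9 FPKM in Al, with a log2 fold change of -0.36 ± 0.13 (adjusted P = 0.0391). Dlg3 (SAP102), a scaffold of young synapses, read 5.13, 5.94 and 5.11 FPKM in control and 2.53, 3.44 and 3.69 FPKM in Al, with a log2 fold change of -0.27 ± 0.15 (adjusted P = 0.158). Both genes had every Al value below control, by less than the fold threshold, and Dlg3 stood at 0.03 under quantile normalization. Dlg5, a scaffold of cell polarity and cell junctions, read 18.7, 17.2 and 16.7 FPKM in control and 13.1, 15.2 and 17.2 FPKM in Al. These FPKM overlapped. After size factors all Al values were above control, with a log2 fold change of 0.27 ± 0.10 (adjusted P = 0.0444), and the sign turned to -0.22 with FPKM as deposited and to -0.51 with TPM. Dlg2 (PSD-93) was near 0, with 9, 12 and 7 reads in control and 29, 14 and 23 reads in Al, higher in each Al library although these were sequenced less deeply.

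**Figure D3:**
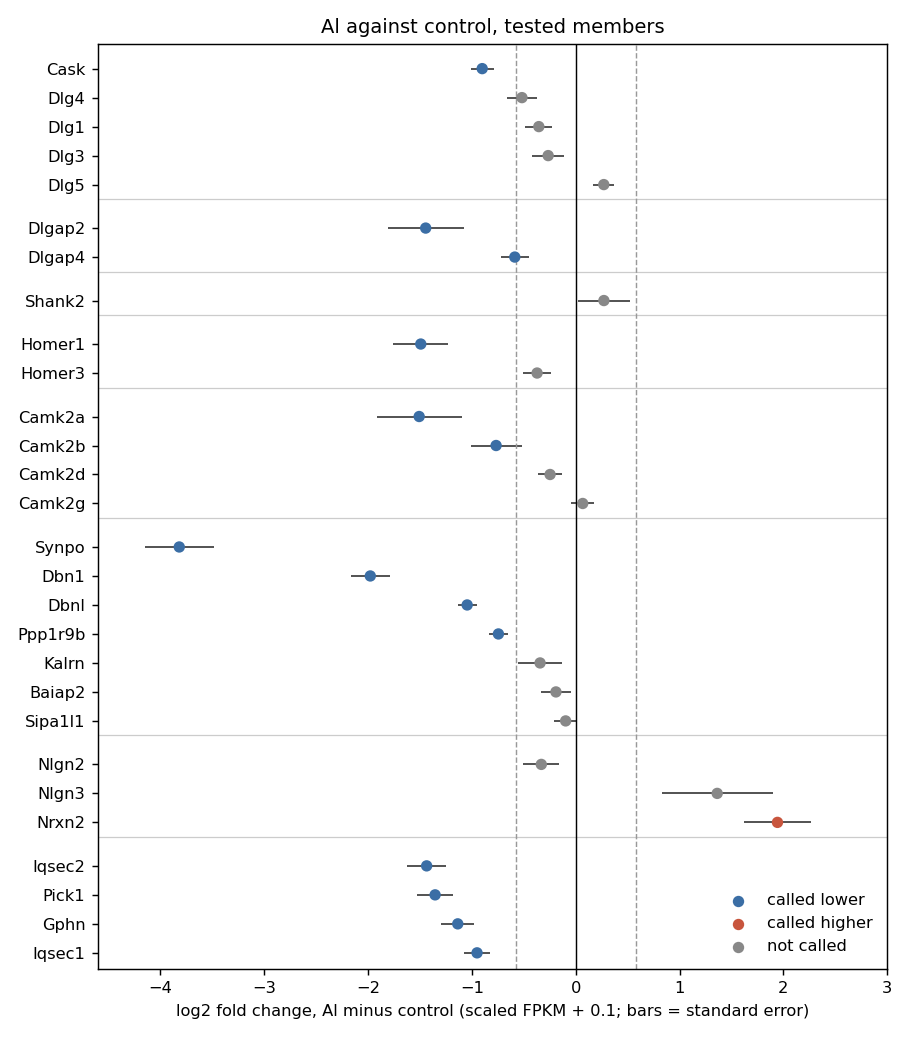
Log2 fold change (Al minus control, scaled FPKM plus 0.1) of each tested member with its standard error as a bar, grouped by family and coloured by call, with dashed lines at -0.58 and 0.58. Called decreases sit in 6 of the 8 families, and Nrxn2 at 1.94, a gene that passed the filter through the Al group alone, is the 1 called increase.

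A share within a family does not depend on the scaling between libraries. The member compared in each family was the one with the highest mean FPKM over all 6 libraries. In control Dlg1 (17.54 FPKM) stood slightly above Dlg5 (17.52 FPKM), so Dlg5 was chosen through its Al values. A higher Dlg5 share in Al was thus partly set by the choice, and its P value is descriptive only. In the other families the same member also led in control alone. Dlg5 took 33.3%, 30.4% and 32.8% of the summed FPKM of Dlg1 to Dlg5 in control and 43.8%, 45.4% and 39.95% in Al. All Al shares were above all control shares, a difference of 10.9 percentage points (exact permutation test over libraries, two-sided P = 0.1, which is the smallest 3 against 3 libraries allow). The part lost by the others was carried by Dlg4, from 25.7 ± 1.22% to 19.8 ± 1.27%, and Dlg1, from 32.2 ± 0.920% to 27.9 ± 2.55% (mean ± SD, n = 3). The adjusted P over the 5 families compared in this way by the exact test was 0.125 for DLG, HOMER, CaMKII and drebrin and 0.8 for DLGAP.

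Of the DLGAP proteins, which link MAGUKs to SHANK, Dlgap4 fell, and Dlgap2 was called with a direction that the filter had fixed. Dlgap4 read 4.62, 4.81 and 4.76 FPKM in control and 2.17, 1.97 and 2.54 FPKM in Al. The control values were nearly alike and all above Al, and the log2 fold change of -0.59 ± 0.13 (adjusted P = 0.00495) lay just past the fold threshold. Leaving out Al replicate 2 (-0.53), raising the pseudocount to 1 (-0.46) or quantile normalization (-0.26) each ended the call. Dlgap2, the other tested member, stood at 0.228 ± 0.0231 FPKM in control and 0.00692 ± 0.00918 FPKM in Al, from 90, 121 and 104 reads in control and 1, 0 and 4 reads in Al. It passed the filter on low values through the control group alone, so a lower value in Al was already set by the filter. Its log2 fold change of -1.45 ± 0.37 rested on the pseudocount of 0.1, being -0.24 and not called with a pseudocount of 1 and -4.76 with limma voom on the reads. Dlgap1 and Dlgap3 were near 0, with 7 to 22 and 0 to 1 reads in control and 8 to 42 and 0 to 5 reads in Al. Dlgap4 made up 94.8 ± 0.728% of the summed DLGAP FPKM in control and 94.6 ± 1.93% in Al, and the shares overlapped (exact permutation test, two-sided P = 0.8).

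The SHANK genes, whose products form the deep layer of the postsynaptic density, were all below 1 FPKM. Shank2 stood at 0.757 ± 0.197 FPKM in control and 0.661 ± 0.0916 FPKM in Al, and its values overlapped. Its log2 fold change was 0.27 ± 0.25 (adjusted P = 0.37), with the sign turning to -0.15 with FPKM as deposited and -0.41 with TPM. Shank1 was below 0.1 FPKM, with 35, 41 and 37 reads in control and 8, 6 and 9 reads in Al, and its Al FPKM were all below control (0.0799 ± 0.00533 against 0.0297 ± 0.00722). Shank3 had 12, 16 and 1 reads in control and 0, 0 and 1 reads in Al, and its values overlapped.

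HOMER proteins join SHANK to metabotropic glutamate receptors and calcium channels. Homer1 fell, reading 1.67, 1.50 and 1.44 FPKM in control and 0.209, 0.413 and 0.422 FPKM in Al. No Al library reached the lowest control library, and the log2 fold change was -1.49 ± 0.26 (adjusted P = 0.00127), a 2.81-fold lower value on the scale with the pseudocount. Homer3, the most abundant of the family, read 16.7, 16.8 and 15.7 FPKM in control and 7.15, 8.77 and 11.6 FPKM in Al, with a log2 fold change of -0.37 ± 0.13 (adjusted P = 0.0346) inside the fold threshold. The gene Ddx49 lies on the opposite strand over 25.4% of the exonic bases of Homer3, and the sources used here do not say whether counting used the strand. Homer2 had 0 to 1 reads in control and 0 to 2 reads in Al. Homer3 took 91.4 ± 0.467% of the HOMER FPKM in control and 96.4 ± 0.796% in Al, with no overlap (exact permutation test, two-sided P = 0.1).

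The stretches of 100 bases before the start of Homer1, Dbnl and Dlg5 are shown as examples. Homer1 and Dbnl fell under every setting that tested them (16 for Dbnl and 15 for Homer1), and Dlg5 was not called under any. The stretches are RefSeq sequences on build GRCm38.p6, read 5′ to 3′ on the strand of the gene, and hold no base of an annotated GENCODE exon. Homer1 is from chr13:93303657-93303756 (+), the upstream one of its 2 windows that meet this condition, Dbnl from chr11:5788383-5788482 (+) and Dlg5 from chr14:24245921-24246020 (-). Capitals mark TGACG or its reverse complement CGTCA, the core of the cAMP response element, a motif chosen after these sequences had been seen.
Homer1: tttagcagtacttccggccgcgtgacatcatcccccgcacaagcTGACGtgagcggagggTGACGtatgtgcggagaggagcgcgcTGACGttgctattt
Dbnl: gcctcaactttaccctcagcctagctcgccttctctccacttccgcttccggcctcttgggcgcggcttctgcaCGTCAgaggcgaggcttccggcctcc
Dlg5: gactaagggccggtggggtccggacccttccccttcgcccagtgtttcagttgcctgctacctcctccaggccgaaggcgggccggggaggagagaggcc

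The Homer1 window held 3 such matches, the Dbnl window 1 and the Dlg5 window 0. The other Homer1 window, at a later start, held 0, as did the windows of Iqsec1, Pick1 and Iqsec2 that met the same condition. Over all 32851 promoters in the reference table, 10.5% held at least 1 match in the same 100 bases, and of 52 promoters belonging to 30 of the members 6 did (11.5%). Dlg5 is the only uncalled member shown, although Dlg1, Dlg3, Camk2d, Nlgn2 and Sipa1l1 also had windows without exon bases. Matches were therefore not compared between called and uncalled members. A match describes letters only and was not tested as a binding site.

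CaMKII, the calcium/calmodulin-dependent kinase that is abundant at synapses, is built from 4 genes, and of these Camk2a and Camk2b, typical of brain, fell, beside 23.7% called lower among all tested genes. Camk2d and Camk2g, found in most tissues, were not called, and a difference between the pairs was not tested. Camk2a stood at 0.756 ± 0.185 FPKM in control and 0.144 ± 0.0961 FPKM in Al, from 185, 194 and 132 reads in control and 34, 18 and 5 reads in Al. The groups did not overlap, the log2 fold change was -1.51 ± 0.41 (adjusted P = 0.011), and the call was lost with a pseudocount of 1 (-0.48). Camk2b read 1.61, 1.89 and 1.62 FPKM in control and 0.517, 0.928 and 0.643 FPKM in Al. Its Al values were all below control, with a log2 fold change of -0.77 ± 0.25 (adjusted P = 0.0237). The call held in 9 of 16 settings. It ended when any 1 of control replicates 1, 2 and 3 or Al replicate 1 was left out, with log2 fold changes between -0.81 and -0.63, and also without the filter, at the larger pseudocount (-0.43) and after quantile normalization.

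Camk2d read 10.1, 10.3 and 9.20 FPKM in control and 5.44, 6.21 and 6.10 FPKM in Al, with a log2 fold change of -0.25 ± 0.11 (adjusted P = 0.0856). Camk2g, the most abundant of the family, read 14.4, 14.1 and 12.2 FPKM in control and 8.68, 9.98 and 11.9 FPKM in Al. Its values overlapped once scaled, with a log2 fold change of 0.07 ± 0.11 (adjusted P = 0.621), whereas with TPM it was called lower at -0.71 (adjusted P = 0.00525). Camk2g took 53.3%, 51.9% and 51.8% of the CaMKII FPKM in control and 58.4%, 57.8% and 63.7% in Al, all higher (exact permutation test, two-sided P = 0.1). The shares of Camk2a (2.90 ± 0.517% to 0.899 ± 0.674%), Camk2b (6.60 ± 0.562% to 4.10 ± 1.11%) and Camk2d (38.2 ± 0.829% to 35.1 ± 2.11%) were lower in every Al library than in any control library.

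**Figure D4:**
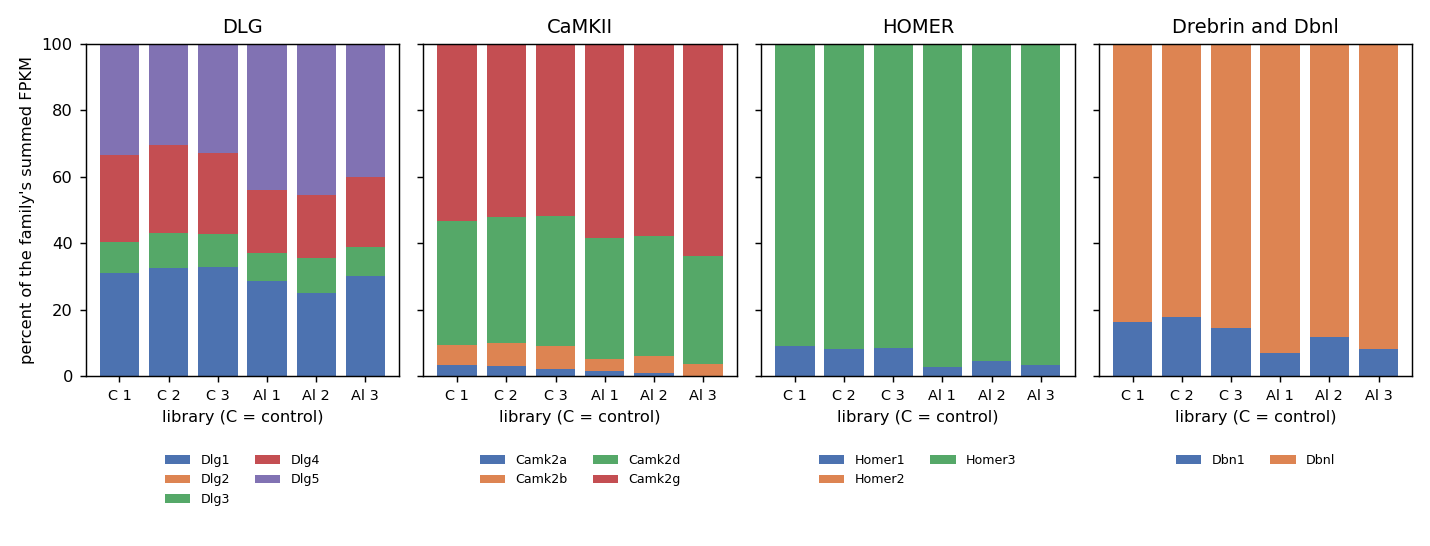
Percent of the summed FPKM of the DLG, CaMKII, HOMER and drebrin families taken by each gene in each of the 6 libraries (C, control). The share of Dlg5, of Camk2g, of Homer3 and of Dbnl is larger in each Al library than in any control library.

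Of the 7 tested spine actin genes 4 fell, Synpo and Dbn1 by the most, beside 23.7% called lower among all tested genes. Synpo, which encodes synaptopodin, an actin-associated protein of the spine apparatus and of kidney podocytes, read 35.0, 30.8 and 14.5 FPKM in control and 1.40, 0.792 and 1.49 FPKM in Al. Control replicate 3 was low within its group but still far above every Al library. The log2 fold change was -3.82 ± 0.33 (adjusted P = 3.17e-05), which is 14.1-fold lower, and it ran from -4.21 to -3.57 as each library was left out in turn. Dbn1, which encodes drebrin, the actin side-binding protein of spines, read 8.41, 9.19 and 7.15 FPKM in control and 1.13, 1.75 and 1.44 FPKM in Al. The groups did not approach each other, and the log2 fold change was -1.98 ± 0.19 (adjusted P = 4.49e-05), 3.94-fold lower.

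Dbnl, the drebrin-like actin adaptor mAbp1 that most cells use in endocytosis, read 43.3, 42.2 and 42.0 FPKM in control and 14.8, 13.1 and 16.0 FPKM in Al, with a log2 fold change of -1.05 ± 0.09 (adjusted P = 3.54e-05). Ppp1r9b, which encodes spinophilin, a spine protein that brings protein phosphatase 1 to actin, was the most abundant member and read 65.9, 66.6 and 62.3 FPKM in control and 25.4, 25.3 and 32.6 FPKM in Al. Its log2 fold change was -0.74 ± 0.09 (adjusted P = 0.000182), and for both genes the Al values lay well below control. Dbnl took 83.8 ± 1.68% of the summed FPKM of Dbn1 and Dbnl in control and 91.0 ± 2.45% in Al, without overlap (exact permutation test, two-sided P = 0.1).

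The other 3 tested spine genes were not called. Baiap2 (IRSp53, a membrane-bending adaptor of Rac) read 10.3, 9.13 and 8.21 FPKM in control and 4.68, 6.33 and 6.32 FPKM in Al, with a log2 fold change of -0.19 ± 0.14 (adjusted P = 0.272). Kalrn (kalirin, an exchange factor for Rac) read 3.16, 2.88 and 2.06 FPKM in control and 1.71, 1.23 and 1.51 FPKM in Al, with a log2 fold change of -0.34 ± 0.22 (adjusted P = 0.194). Sipa1l1 (SPAR, a Rap GTPase-activating protein that binds PSD-95) read 16.5, 14.6 and 16.1 FPKM in control and 9.18, 11.01 and 11.3 FPKM in Al, with a log2 fold change of -0.10 ± 0.11 (adjusted P = 0.464). For these 3 genes the deposited FPKM did not overlap but the scaled values did. Arc, an immediate-early gene of synaptic activity, and Ppp1r9a (neurabin) were near 0, with 0 to 6 and 0 to 1 reads in any library.

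Of the neurexins and neuroligins, 3 of 5 were tested and none was called lower, beside 23.7% of all tested genes, and the call of Nrxn2 was tied to the filter. Nrxn2, which encodes a presynaptic adhesion receptor, stood at 0.0651 ± 0.0163 FPKM in control and 0.428 ± 0.125 FPKM in Al, from 20, 20 and 14 reads in control and 53, 64 and 77 reads in Al. All Al values were above control, with a log2 fold change of 1.94 ± 0.32. It passed the filter through the Al group alone, so that a higher value in Al was set by the filter, and with a pseudocount of 1 it was not called (0.51). Nlgn3, a neuroligin of excitatory and inhibitory synapses, stood at 0.143 ± 0.128 FPKM in control and 0.423 ± 0.285 FPKM in Al, with overlap. Its log2 fold change of 1.36 ± 0.53 missed the threshold (adjusted P = 0.0515) and passed it without control replicate 2 and without Al replicate 1. The transcript Gm21986 shares 41.2% of the exonic bases of Nlgn3, so reads of the 2 cannot be told apart there.

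Nlgn2, the neuroligin of inhibitory synapses, read 17.9, 15.7 and 14.9 FPKM in control and 6.79, 8.61 and 12.9 FPKM in Al. It was the 1 adhesion member above 1 FPKM, its scaled values overlapped, and its log2 value in Al minus control was -0.33 ± 0.17 (adjusted P = 0.127). Nlgn1 and Nrxn3 were near 0, with 13 to 23 and 0 to 8 reads in control and 0 to 5 and 0 to 1 reads in Al.

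Of 6 adaptors and exchange factors 4 were tested, and all 4 fell, beside 23.7% called lower among all tested genes. Grip1 and Cnksr2 were not tested. Pick1, the PDZ protein that binds AMPA receptor tails and takes part in their internalization, read 8.42, 8.78 and 8.13 FPKM in control and 1.73, 2.73 and 2.58 FPKM in Al. The values were well separated, and the log2 fold change was -1.35 ± 0.17 (adjusted P = 0.000191), with the annotated gene Gm49486 sharing 18.6% of its exonic bases on the same strand. Gphn, which encodes gephyrin, the scaffold of inhibitory synapses and an enzyme of molybdenum cofactor synthesis in all tissues, read 5.40, 6.40 and 5.50 FPKM in control and 1.64, 1.56 and 2.35 FPKM in Al. Again no Al value came near control, with a log2 fold change of -1.14 ± 0.16 (adjusted P = 0.000337).

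Iqsec1 and Iqsec2 encode exchange factors for Arf6 that reside at the postsynaptic density. Iqsec1 read 18.8, 16.9 and 15.6 FPKM in control and 5.85, 5.33 and 7.84 FPKM in Al, with a log2 fold change of -0.95 ± 0.13 (adjusted P = 0.000279). Iqsec2 read 3.59, 3.66 and 3.64 FPKM in control and 0.751, 0.783 and 1.25 FPKM in Al, with a log2 fold change of -1.44 ± 0.19 (adjusted P = 0.000239). In both, each Al library was below each control library, and the control values of Iqsec2 differed little from each other. Grip1, an AMPA receptor adaptor, and Cnksr2, a postsynaptic Ras scaffold, were near 0, with 0 to 9 and 0 to 4 reads in any library.

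In all, 12 members were below 0.1 FPKM: Dlg2, Dlgap1, Dlgap3, Shank1, Shank3, Homer2, Arc, Ppp1r9a, Nlgn1, Nrxn3, Cnksr2 and Grip1. None of them was at 0 in all 6 libraries. They stayed out of the test with the filter, and when limma was run without the filter 0 of the 12 were called, 1 of them (Dlgap1) passing at an unadjusted P below 0.05. In that fit 3343 of the 17688 genes above 0 were called higher and 2956 lower. The share called among genes below 0.1 FPKM alone was not computed, so nothing is read from the 0 of 12. Where a library held 0 reads, an expected count of up to 3 is allowed by counting error alone, and the Al libraries were shallower. How small a difference could be detected at these levels and this depth was not tested. Between groups Shank1 (Al lower) and Dlg2 (Al higher) did not overlap as deposited or after size factors, Nlgn1 did not overlap as deposited (Al lower) and Dlgap1 did not overlap after size factors (Al higher). Among all 4799 genes of the table below 0.1 FPKM with a read in any library, every Al value was below control in 6.17% as deposited and 5.08% after size factors, and above control in 5.4% and 6.56%.

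Other genes of the same structures, from lists that hold none of the 40, were called in both directions, in shares to be read against the 25.5% higher and 23.7% lower among all tested genes. Of 31 further postsynaptic density genes 26 were tested, with 6 called higher and 8 called lower and a median log2 fold change of -0.22. Of 46 further synaptic adhesion genes 23 were tested, with 5 called higher and 6 called lower and a median of 0.02. Among the genes that fell, Wasf1 (WAVE1, which drives actin branching) went from 5.92 ± 0.797 to 1.43 ± 0.586 FPKM and Tenm4, a teneurin, from 14.99 ± 0.897 to 4.35 ± 1.11 FPKM, with log2 fold changes of -1.58 ± 0.25 (adjusted P = 0.000691) and -1.31 ± 0.16 (adjusted P = 0.000145). Psd3, an Arf6 exchange factor, went from 1.95 ± 0.0668 to 0.571 ± 0.207 FPKM (-1.22 ± 0.23). Among the genes that rose were the ephrin ligands Efnb3, from 0.523 ± 0.00644 to 2.78 ± 0.811 FPKM (2.61 ± 0.21), and Efnb2, from 11.5 ± 0.489 to 18.1 ± 0.550 FPKM (1.13 ± 0.11). Lin7c, a binding partner of Cask, rose from 12.7 ± 0.667 to 21.3 ± 0.791 FPKM (1.23 ± 0.10), and Lrrtm2, a postsynaptic ligand of neurexins, from 0.843 ± 0.0601 to 1.41 ± 0.579 FPKM (1.06 ± 0.25). Lin7b, a paralogue of Lin7c, was called lower like Cask, from 3.47 ± 0.565 to 1.57 ± 0.764 FPKM (-0.71 ± 0.27, adjusted P = 0.0434), with scaled values that overlapped, and is named here after its values were seen. Lin7c (0.45) and Efnb2 (0.35) were not called with TPM, nor was Lrrtm2 on deposited FPKM (0.62) or TPM (0.35). Genes were named here only at a mean of at least 1 FPKM over all libraries. Efnb3 and Lrrtm2 reached that level through the Al group alone and Psd3 through control alone, which favoured naming them in their direction.

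Base composition and length of the transcripts were set beside the changes. Across the 28 tested members Spearman's rho between the log2 fold change and transcript GC content was -0.04, and across 12247 tested genes with a value it was 0.03. With transcript length it was 0.42 across the members and -0.14 across all genes, with median lengths of 5342 and 3018 bases. These are correlations across genes, which share libraries and are not independent replicates.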

How the data were processed

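RNA of HT22 cells was sequenced after preparation with a stranded mRNA kit, and the input libraries were analysed here (control n = 3, Al n = 3). The deposited values are FPKM, 1 per gene symbol and library. According to the study's methods the authors trimmed reads with Trimmomatic, removed ribosomal RNA with SortMeRNA and aligned to GRCm38 with HISAT2, whereas the submitters' processing notes name fastp, HISAT2, HTSeq and GRCm39, so the build behind the FPKM is uncertain. Whether counting used strand is not given in the sources used here.

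FPKM values step by whole reads, and the number of reads behind each value was recovered for 17688 of 17688 genes above 0 (tolerance 0.0001 reads); totals per library are given with the results. Limits set from reads cover counting error only, since PCR copies cannot be told from separate molecules. FPKM were divided by median-of-ratios size factors taken over genes detected in each of the 6 libraries at a mean of at least 1 FPKM. The 12889 genes with a mean of at least 0.1 FPKM were tested with limma 3.58.1 (lmFit, eBayes with trend) in R 4.3.3 on log2(value + 0.1), and P values were adjusted by Benjamini-Hochberg over all of them. The fold threshold of 0.58 (log2) is the study's. The pseudocount understates changes of low genes. Family shares were compared by exact permutation over libraries in scipy 1.17.1. The limma test and the read recovery were also run on simulated data with few changed genes. That does not check the scaling on these data, where many genes were called. Exon overlaps, GC content and length came from GENCODE on GRCm38, and promoters from RefSeq.

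The members and lists were chosen with earlier results of these data known. All 40 members are accounted for, with values in every library at a mean of at least 1 FPKM. From the other lists, the 4 strongest called increases and the 4 strongest called decreases at that level are named, except 1 decrease that is not reported here. Alternatives covered scaling, pseudocount, filter, trend, a replicate block, unadjusted P, limma voom on the recovered reads, and each library left out in turn.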

Additional observations from a re-analysis of the deposited data

How the results depend on the processing

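With size factors 3291 of all tested genes were called higher and 3053 lower, against 1736 and 5321 with FPKM as deposited and 1141 and 6734 with TPM. Members called lower numbered 14, against 23 with FPKM as deposited and 24 with TPM, 10 with a pseudocount of 1, 11 with a minimum mean of 1 FPKM, and 12 to 15 as each library was left out in turn, where all tested genes called lower numbered 2414, 2676 and 2777 to 3214. The minimum mean of 1 FPKM removed Dlgap2, Homer1 and Camk2a from the test, and the other members called lower kept their call. Members called higher numbered 1 (Nrxn2), against 2 with the unadjusted P, with the replicate block and with limma voom, 1 to 2 with a library left out, and 0 in limma with a pseudocount of 1 or with a minimum mean of 1 FPKM, a filter that removes Nrxn2 and Nlgn3. All tested genes called higher numbered 3375 with the unadjusted P, 3248 with the replicate block and 3323 with limma voom. They numbered 3019 to 3417 with a library left out, 2707 with a pseudocount of 1 and 2656 with a minimum mean of 1 FPKM. The median log2 fold change of the tested members, -0.55, became -1.03 with FPKM as deposited, -1.32 with TPM, -0.39 with a pseudocount of 1, -0.42 under quantile normalization and -0.32 when every gene above 0 was kept, and ran from -0.62 to -0.49 with a library left out. Camk2g turned from 0.07 to -0.71 and was called with TPM. Of 411 single-gene values, that one included, 366 kept direction and call, 7 turned sign without being called (Dlg3, Dlg5, Shank2 and Camk2g), 13 lost a call and 24 gained one. Replicate numbers did not pair the libraries (correlations of same-numbered deviations -0.03, -0.03 and -0.07), and with the replicate block Nlgn3 was the second member called higher. With each library left out, the shares of Dlg5, Homer3, Camk2g and Dbnl stayed higher in Al, while the difference for Dlgap4, -0.263 percentage points, turned to 0.0244 without control replicate 3 and to 0.797 without Al replicate 1. Shallower Al libraries limit the members below 0.1 FPKM, where values rest on few reads, from 0 up to 42 (Dlgap1 in Al replicate 1).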
